A study of Mus musculus with 2 samples.

Results

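The transforming growth factor beta (TGF-beta) pathway was followed in CD8 T cells of the mouse mammary fat pad through 10 genes, chosen by name from the 32285 genes of the matrices. They were the ligand gene Tgfb1, the receptor genes Tgfbr1 and Tgfbr2, the Smad genes Smad3 and Smad7, the co-repressor genes Ski and Skil, and Pmepa1, Spsb1 and Ldlrad4, whose products act back on the pathway. All 10 matched 1 row each and passed the minimum of 10 UMIs in the comparison of the libraries. They were chosen with earlier results of these data known, so counts of them set beside all genes describe this set only. Live CD8 T cells, sorted by surface CD45, T cell receptor beta and CD8a, came from the 4th mammary fat pads of untreated C57BL/6 mice, and their age was not given in the labels used here. The parous group had been through several pregnancies and the virgin group through none. Each group was 1 single-cell library made with 5-prime droplet chemistry, and at least 5 mice were pooled for it. With 1 library per group no test was made, and group and library cannot be told apart.

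TGF-beta ligands bind the type 2 receptor TGFBR2, which recruits and phosphorylates the type 1 receptor TGFBR1. TGFBR1 then phosphorylates SMAD2 and SMAD3, which enter the nucleus with SMAD4 and bind DNA, while SMAD7, SKI and SKIL restrain the signal at the receptor or on DNA. In CD8 T cells the pathway is known to raise Itgae, which encodes the integrin chain CD103 that binds E-cadherin, and to help tissue-resident memory cells form in epithelia. The cells were therefore also separated by whether at least 1 Itgae UMI was found in them.

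Promoter windows of 300 bases (250 before to 50 after the start of the gene, RefSeq, build GRCm38.p6) were held for 6 of the 10 genes, and not for Pmepa1, Skil, Smad7 and Ldlrad4. The windows of Spsb1 and Ski, both higher in the parous library, are shown beside that of Tgfbr2, whose level was nearly the same in both libraries. Capitals mark CAGAC or its reverse complement GTCTG, the short DNA element that Smads bind, and GGCGC or its reverse complement GCGCC, a GC-rich element that they also bind. GGCGC and GCGCC overlap within GGCGCC, and each match was counted. All 3 lie on the minus strand and are written 5′ to 3′ along it, at chr4:149954957-149955256 for Spsb1, chr4:155222486-155222785 for Ski and chr9:116175314-116175613 for Tgfbr2.
Spsb1: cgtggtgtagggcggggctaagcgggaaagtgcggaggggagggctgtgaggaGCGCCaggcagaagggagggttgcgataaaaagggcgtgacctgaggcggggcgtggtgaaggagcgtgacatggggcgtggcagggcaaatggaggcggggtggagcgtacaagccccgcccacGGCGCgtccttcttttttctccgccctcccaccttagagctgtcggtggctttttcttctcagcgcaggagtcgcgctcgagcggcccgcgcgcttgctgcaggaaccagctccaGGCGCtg
Ski: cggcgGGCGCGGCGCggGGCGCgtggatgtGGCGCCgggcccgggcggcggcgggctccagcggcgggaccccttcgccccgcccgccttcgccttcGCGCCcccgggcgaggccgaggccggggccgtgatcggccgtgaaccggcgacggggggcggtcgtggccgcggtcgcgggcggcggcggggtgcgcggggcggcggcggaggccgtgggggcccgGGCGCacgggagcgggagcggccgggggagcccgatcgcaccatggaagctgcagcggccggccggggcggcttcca
Tgfbr2: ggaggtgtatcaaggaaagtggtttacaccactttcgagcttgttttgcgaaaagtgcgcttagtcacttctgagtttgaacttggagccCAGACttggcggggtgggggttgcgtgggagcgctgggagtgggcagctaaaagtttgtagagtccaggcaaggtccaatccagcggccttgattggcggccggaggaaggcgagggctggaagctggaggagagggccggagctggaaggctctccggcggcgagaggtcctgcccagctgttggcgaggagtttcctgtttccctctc
The Spsb1 window held 0 CAGAC and 3 GGCGC matches, the Ski window 0 and 7, and the Tgfbr2 window 1 and 0. Over 32851 mouse promoter windows of the same length, 49.6% held CAGAC and 36.9% held GGCGC. Of the windows not shown, that of Smad3, higher in the parous library, held 0 and 0, that of Tgfb1 0 and 2, and those at both starts of Tgfbr1 0 and 3 and 1 and 0. A match is a description of the letters only.

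Counts are of UMIs, molecular tags that let each captured RNA molecule be counted once. The parous matrix held 4927 barcodes with 14676415 UMIs, and the virgin matrix 2526 barcodes with 20166425 UMIs. The cell filter and the removal of a small cluster of other cells left 2992 parous CD8 T cells with a median of 4107 UMIs and 2502 virgin CD8 T cells with a median of 7002 UMIs. Cd3e was seen in 95.1% of parous cells and 98.4% of virgin cells. Parous cells had a Cd8b1 UMI in 79.9% of cases and virgin cells in 95.3%, so most cells carried these T cell transcripts. The libraries shared 14 barcodes among the cells kept. Levels are given as CPM, the gene's UMIs among 1000000 UMIs of the pool, with exact 95% Poisson intervals, exact Clopper-Pearson intervals for shares, and exact conditional intervals for log2 ratios, all covering counting error only. Ratios had 0.5 added to each count, and a gene counted as higher or lower when it was at least 1.5-fold apart. Log2 ratios of parous over virgin are best read against the median over the 11913 genes that reached 10 UMIs in both libraries, which lay at −0.13.

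Clustering, made without these 10 genes, Itgae and the other genes of the pathway lists, gave 11 clusters of CD8 T cells. Cluster 4, tissue-resident memory-like, had Adgrg1, Ckb, Osgin1, Pdcd1 and Car2 as its leading genes and held 416 parous and 13 virgin cells (13.9% and 0.520%). Cluster 5 was led by Gzmc, Fcer1g, Tyrobp, Clnk and Klrb1a, and held 326 parous and 5 virgin cells. It had 9 tissue-resident memory markers past the naming threshold, against 8 in cluster 4 and 6 in cluster 6. It stayed unnamed because 2 of its 10 leading genes were NK or innate-like markers and 0 were tissue-resident memory markers. Cd8b1 was seen in 21.8% of the cells of cluster 5 and Itgae in 70.4%. Both clusters were thus almost wholly parous, and values without them are given beside the main comparisons and the pathway lists. The other 9 were filled by both libraries with at least 30 cells each. They were naive or central memory-like (cluster 0), Gzmk or exhausted-like (1), unnamed with Gzmm and Il2 in the lead (2), Ly49 or Helios-like (3), a second tissue-resident memory-like cluster led by Mmp9, Ccr4, Cd40lg, Ccr8 and Socs2 (6), cycling-like (7), circulating effector-like (8), unnamed with little RNA (9) and interferon-responding-like (10).

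The first comparison set parous against virgin CD8 T cells. The libraries differed in their mix of states. Naive or central memory-like cells made up 15.1% of parous and 38.9% of virgin cells, and cycling-like cells 2.21% and 6.55%. Cluster 2 made up 19.9% and 9.51%, while cluster 6 had nearly equal shares (5.61% and 5.60%). Ratios over all cells therefore combine this mix with the levels within states, and the part of each was not tested. The genes whose products restrain the pathway, and Smad3, were higher in the parous library, the receptor genes stood at nearly the same level in both, and the ligand gene stood lower, by less than 1.5-fold. By this threshold 7 of the 10 genes were higher and 0 lower, and their median log2 ratio was 0.82. Over all 13917 genes with enough UMIs 8.61% were higher and 17.4% lower, with a median of −0.15. Without clusters 4 and 5, 6 of the 7 stayed past the threshold, all but Smad7, and Tgfb1 was lower, where 6.02% of 13728 genes were higher and 18.1% lower.

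Tgfb1 (chromosome 7, 25687002 to 25705077 on GRCm38) encodes the main TGF-beta ligand of immune cells. It stood at 76.0 CPM in parous and 103.9 CPM in virgin cells (1010 and 2073 UMIs), a log2 ratio of −0.45 (interval −0.56 to −0.34), and the ratio was −0.60 without clusters 4 and 5. With each cell given equal weight it was −0.22, so the size of the difference depended on how cells of unequal depth were weighted. Among the states, parous Tgfb1 was lowest in naive or central memory-like cells at 37.2 CPM, and cluster 5 had 134.5 CPM. In the virgin library the naive or central memory-like cells were again the lowest, at 64.5 CPM, and cycling-like cells the highest, at 195.4 CPM. Within 6 of the 9 states the interval of the parous over virgin ratio lay below 0, and in 0 states above 0. In clusters 1, 2 and 6, which are among these, the upper limits were −0.06, −0.09 and −0.09. The medians over all genes there were lower, at −0.13, −0.14 and −0.12, so these intervals did not lie below the general shift.

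Tgfbr1 (chromosome 4, 47353222 to 47414931) encodes the type 1 receptor kinase that phosphorylates the Smads. It stood at 21.004 CPM in parous and 19.8 CPM in virgin cells, a log2 ratio of 0.09 (interval −0.14 to 0.31). Tgfbr2 (chromosome 9, 116084293 to 116175360), the ligand-binding type 2 receptor, stood at 146.7 and 151.5 CPM, with a log2 ratio of −0.05 (interval −0.13 to 0.04) that became 0.08 when the libraries were scaled by the median of ratios. Neither receptor differed by as much as 1.5-fold between the libraries. Tgfbr2 was highest in naive or central memory-like cells, with 179.8 CPM in parous and 200.2 CPM in virgin cells, and lowest in cycling-like cells, with 78.1 and 88.8 CPM. Parous cluster 5 had 179.3 CPM of Tgfbr2 and cluster 4 had 153.5 CPM, with intervals that overlap that of parous naive or central memory-like cells. Tgfbr1 was highest in parous cluster 5 at 43.4 CPM (interval 33.0 to 55.9), against 15.5 CPM (interval 9.9 to 23.0) in cluster 4.

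Smad3 (chromosome 9, 63646767 to 63757994), the Smad that carries the receptor signal to DNA, stood at 57.1 CPM in parous and 35.2 CPM in virgin cells (758 and 703 UMIs), a log2 ratio of 0.69 (interval 0.55 to 0.85). Its order over the states was alike in the libraries at both ends. Naive or central memory-like cells were the lowest, with 17.1 CPM in parous and 15.3 CPM in virgin cells, and their intervals did not overlap those of the next state. Tissue-resident memory-like cluster 6 was the highest, with 94.2 CPM in parous and 78.3 CPM in virgin cells. Its interval overlapped that of the next state in both libraries, so the counts do not settle which state is highest. Parous cells of clusters 4 and 5, at 67.1 and 69.1 CPM, stood in the middle of this order, with intervals that overlap that of cluster 6. Within the 9 states that both libraries filled, the median Smad3 log2 ratio was 0.43, and the interval lay above 0 in 2 of them.

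Smad7 (chromosome 18, 75367529 to 75395935), the inhibitory Smad that blocks the receptor and that the signal itself is known to raise, stood at 154.0 CPM in parous and 101.9 CPM in virgin cells (2046 and 2033 UMIs), a log2 ratio of 0.60 (interval 0.51 to 0.68). Parous cluster 4 had the highest level, 205.7 CPM. Naive or central memory-like cells had 146.5 CPM in the parous library and nearly the same level, 139.9 CPM, in the virgin one, where they were the highest state. In cycling-like cells the levels were 150.9 CPM in parous and 42.3 CPM in virgin cells, and in cluster 6 they were 156.5 and 73.7 CPM. The libraries thus lay further apart for Smad7 in these states than in the naive or central memory-like one, and the ratio over all cells was 0.53 without clusters 4 and 5.

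The co-repressor genes Ski (chromosome 4, 155154075 to 155222592) and Skil (chromosome 3, 31095058 to 31122577) encode nuclear proteins that bind Smads and silence their targets, and Skil is itself raised by TGF-beta. Ski stood at 46.5 CPM in parous and 24.1 CPM in virgin cells (618 and 481 UMIs), a log2 ratio of 0.95 (interval 0.77 to 1.12). Skil stood at 99.98 CPM in parous and 42.9 CPM in virgin cells (1328 and 855 UMIs), a log2 ratio of 1.22 (interval 1.10 to 1.35). Without clusters 4 and 5 the ratios were 0.78 for Ski and 0.75 for Skil. Skil was highest in parous clusters 5 and 4, at 216.0 and 191.5 CPM with overlapping intervals, and the next parous state, interferon-responding-like cells, had 98.0 CPM. The virgin states spanned 22.5 to 58.9 CPM of Skil, so every virgin state given lay below parous clusters 4 and 5.

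Pmepa1 (chromosome 2, 173224458 to 173276533) encodes a membrane protein that binds Smads and keeps them from the receptor, and Ldlrad4 (chromosome 18, 67933257 to 68268630) encodes a related protein with the same known action. Pmepa1 stood at 101.7 CPM in parous and 21.6 CPM in virgin cells (1351 and 431 UMIs), a log2 ratio of 2.23 (interval 2.08 to 2.39). It was found in 841 parous and 304 virgin cells, and with every cell thinned to 1400 UMIs the share was 12.0% for parous and 2.93% for virgin cells (28.1% and 12.2% without thinning). No state is known to lack Pmepa1. The lowest thinned shares were 0 of 150 virgin circulating effector-like cells (a count of 0, with an upper limit of 2.43%), 0.719% of virgin cells of cluster 6 (1 cell) and 0.786% of virgin Gzmk or exhausted-like cells. Ldlrad4 stood at 104.4 CPM in parous and 43.5 CPM in virgin cells (1387 and 868 UMIs), a log2 ratio of 1.26 (interval 1.14 to 1.39).

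Spsb1 (chromosome 4, 149896283 to 149955043) encodes a ubiquitin ligase adaptor that is known from cell lines to act on TGFBR2. It stood at 23.8 CPM in parous and 3.91 CPM in virgin cells (316 and 78 UMIs), a log2 ratio of 2.60 (interval 2.24 to 2.98). The 5 cells with the most Spsb1 UMIs held 6.01% of the parous UMIs and 16.7% of the virgin UMIs. For Pmepa1 such cells held 2.74% of parous and 7.66% of virgin UMIs, so neither parous level came from a handful of cells. Without clusters 4 and 5 the log2 ratio was 1.68 for Pmepa1 (67.4 CPM in parous and 20.96 CPM in virgin cells), 1.42 for Spsb1 (10.1 and 3.78 CPM) and 0.59 for Ldlrad4 (65.2 and 43.2 CPM).

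**Figure D1:**
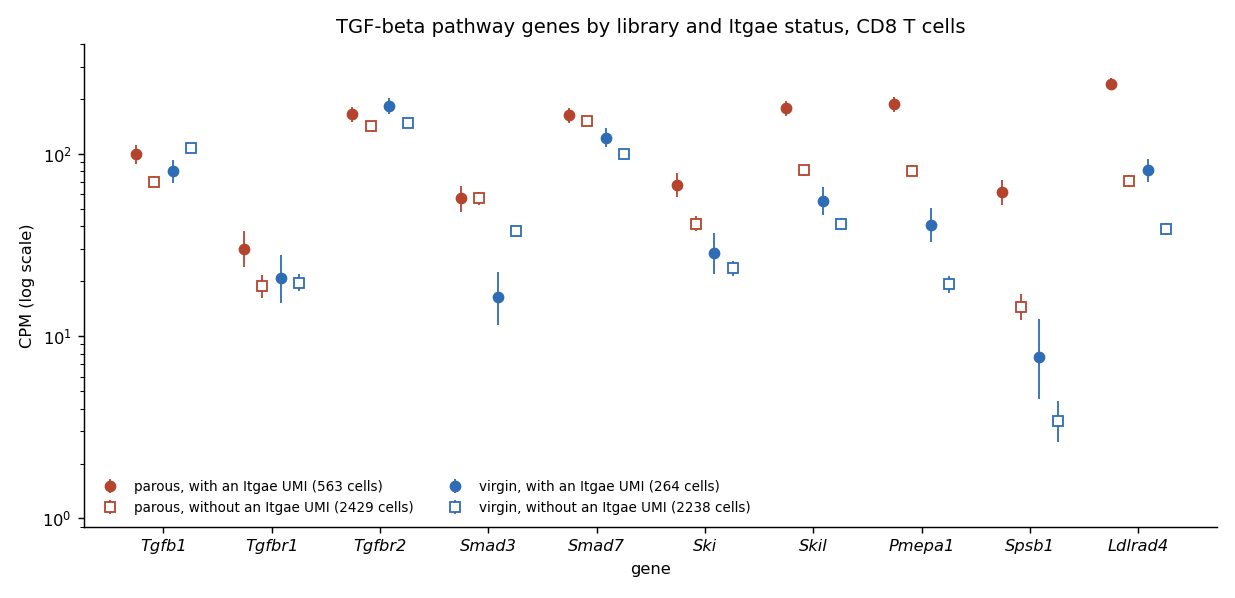
Level (CPM, vertical log axis) of the 10 genes in CD8 T cells with and without an Itgae UMI, parous and virgin, with exact 95% Poisson intervals for counting error. Pmepa1, Spsb1, Skil and Ldlrad4 stand highest in parous cells with Itgae (186.7, 61.6, 177.5 and 241.4 CPM), while Tgfbr2 lies between 142.4 and 183.2 CPM in all 4 pools.

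Across the T cell states, Pmepa1, Spsb1, Skil and Ldlrad4 were concentrated in parous clusters 4 and 5, which made up 13.9% and 10.9% of parous cells. Together these clusters held 66.8% of the parous Spsb1 UMIs, 51.3% of Ldlrad4, 48.3% of Pmepa1 and 44.5% of Skil, but between 24.7% and 30.6% for each of the other 6 genes. Pmepa1 stood at 235.4 CPM in cluster 4 and 210.9 CPM in cluster 5, with overlapping intervals, and the next parous state, interferon-responding-like cells, had 108.3 CPM. Spsb1 was higher in cluster 5 (88.2 CPM) than in cluster 4 (58.7 CPM), and their intervals did not overlap. Ldlrad4 differed more between the clusters, with 330.7 CPM (interval 300.8 to 362.7) in cluster 5 and 168.3 CPM (interval 148.5 to 190.0) in cluster 4.

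Set against the other parous CD8 T cells, cluster 4 had 4 of the 10 genes at least 1.5-fold higher and 0 lower, where 15.3% of 12083 genes were higher and 15.5% lower. These were Spsb1 (log2 ratio 1.62), Pmepa1 (1.49), Skil (1.13) and Ldlrad4 (0.81). Spsb1 and Pmepa1 were also among the 10 leading genes of cluster 4, although the clustering did not use them. That ranking was against all other cells of both libraries, so the parous over virgin difference also enters it. Cluster 5 had 6 of the 10 at least 1.5-fold higher and 0 lower, where 22.8% of genes were higher and 15.9% lower, and its list held Tgfbr1 (1.24) and Tgfb1 (0.96) beside the same 4 genes. Clusters 4 and 5 differed in innate-type genes: the 10 NK or innate-like markers summed to 48.4 CPM in parous cluster 4, with Klra8 and Klri2 at 0, and to 5980 CPM in parous cluster 5, with none at 0. The high levels of Pmepa1, Skil and Spsb1 in cluster 4 therefore stood in cells with few innate-type transcripts.

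The other tissue-resident memory-like state, cluster 6, did not reach these levels. In the parous library its Pmepa1 stood at 82.4 CPM, its Spsb1 at 16.8 CPM and its Skil at 72.3 CPM. The log2 ratios were −0.30, −0.45 and −0.47 against the other parous CD8 T cells, which include clusters 4 and 5. All parous cells without clusters 4 and 5 had 67.4 CPM of Pmepa1, 10.1 of Spsb1 and 71.1 of Skil, none above cluster 6. Ldlrad4 stood at 94.2 CPM in cluster 6 (interval 71.2 to 122.3) and 65.2 CPM in those cells (interval 60.4 to 70.3). By the same count against the other parous cells 1 of the 10 genes was higher in cluster 6 (Smad3, log2 ratio 0.78) and 0 were lower, where 21.5% of genes were higher and 14.5% lower. Of its parous cells 14.3% had an Itgae UMI, against 35.1% of the parous cells of cluster 4.

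**Figure D2:**
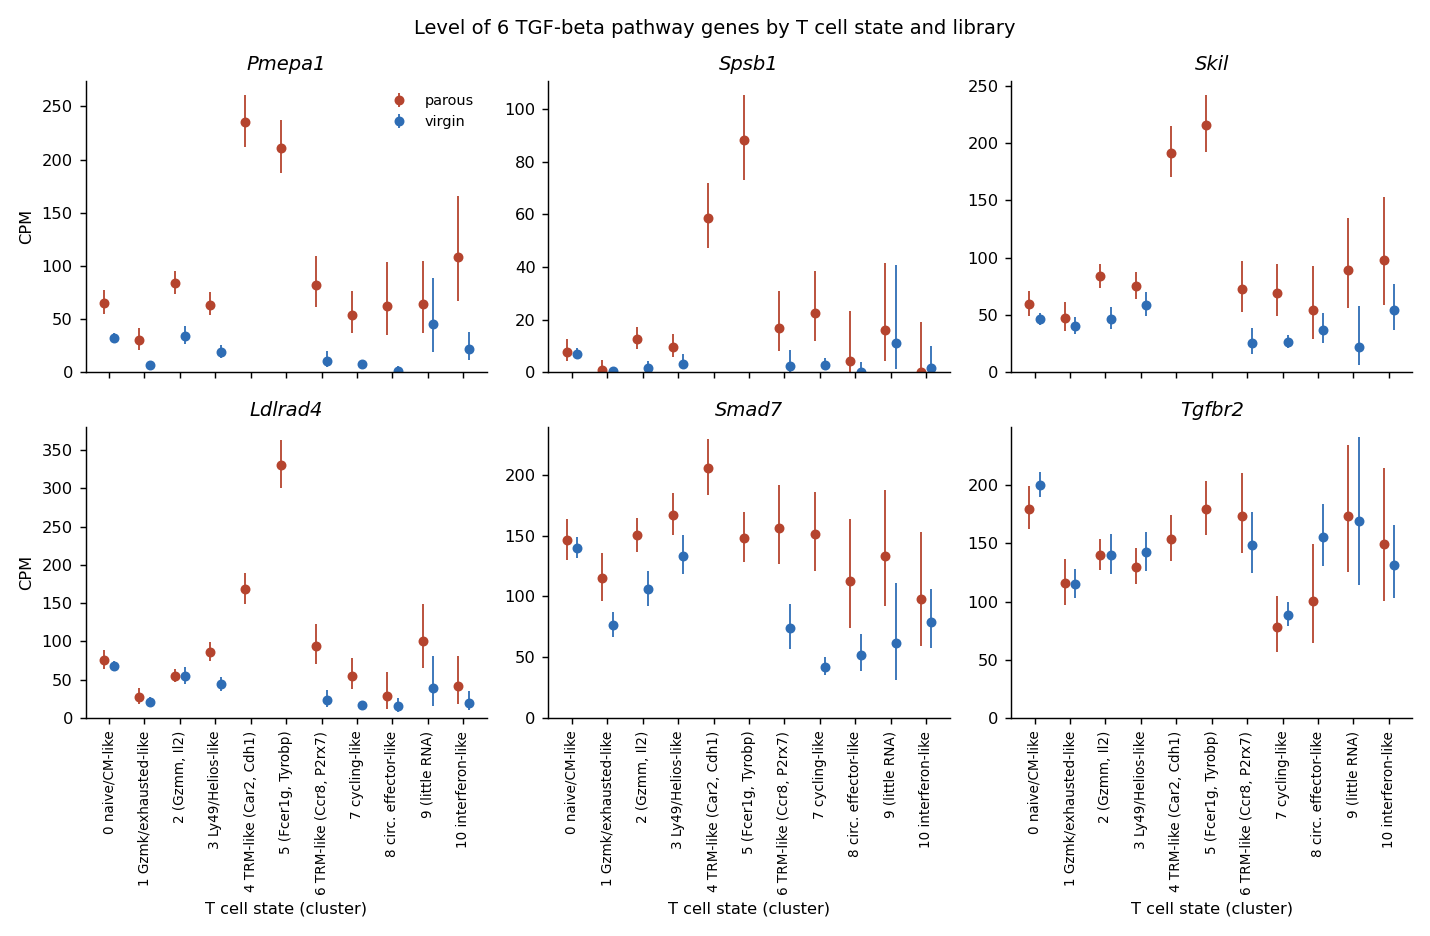
Level (CPM, vertical axes) of 6 genes in each T cell state, parous and virgin, with exact 95% Poisson intervals; CM stands for central memory and TRM for tissue-resident memory, and virgin pools of clusters 4 and 5 (13 and 5 cells) are not drawn. Pmepa1, Spsb1, Skil and Ldlrad4 peak in parous clusters 4 and 5, Smad7 is highest in parous cluster 4 at 205.7 CPM, and Tgfbr2 shows no such peak.

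The libraries were next compared within each of the 9 states that both filled. Pmepa1 was higher in the parous library in all 9, at least 1.5-fold in 8, with a median log2 ratio of 2.19 and a range of 0.48 to 5.28. In naive or central memory-like cells it stood at 65.1 CPM in parous and 32.6 CPM in virgin cells (133 and 236 UMIs), a log2 ratio of 1.002 (interval 0.68 to 1.31). In Gzmk or exhausted-like cells it stood at 29.98 and 6.51 CPM, and in cluster 6 at 82.4 and 10.4 CPM (49 and 9 UMIs), a log2 ratio of 2.93 (interval 1.95 to 4.202). The extreme value, 5.28 in circulating effector-like cells, rested on 15 parous UMIs and 1 virgin UMI, with an interval of 3.12 to 11.21. In the little-RNA cluster 9 the interval of the Pmepa1 ratio, −0.78 to 1.96, held 0.

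The other genes followed 2 patterns. Ski, Skil, Smad7, Smad3 and Ldlrad4 had ratios above 0 in all 9 states. They were at least 1.5-fold higher in 6, 6, 5, 2 and 6 of them, and their intervals lay above 0 in 6, 6, 7, 2 and 4. Their median log2 ratios were 0.89, 0.84, 0.59, 0.43 and 0.97 in that order. Spsb1 had at least 10 UMIs in 5 states and was at least 1.5-fold higher in 4 of these, the exception being naive or central memory-like cells, with 7.84 CPM in parous and 6.90 CPM in virgin cells. Tgfbr2 had a ratio above 0 in 5 states and below 0 in 4, with a median of 0.00, and Tgfb1 was below 0 in 7. Tgfbr1 had at least 10 UMIs in 8 states, with a ratio above 0 in 3 and below 0 in 5.

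The count of the 10 genes also differed between states. In naive or central memory-like cells 2 were higher (Pmepa1 and Tgfbr1) and 1 lower (Tgfb1), where 6.19% of 11091 genes were higher and 19.2% lower. In cluster 6 5 were higher and 0 lower, where 10% of 8635 genes were higher and 21.4% lower, and these were Pmepa1, Spsb1, Ldlrad4, Skil and Smad7. In cycling-like cells 7 were higher and 1 lower (Tgfb1), where 12.1% of 10153 genes were higher and 20.4% lower. In cluster 2 5 were higher and 1 lower (Tgfbr1), where 5.97% of genes were higher and 18.1% lower. In Gzmk or exhausted-like cells 3 were higher (Smad7, Ski and Pmepa1) and 0 lower, where 6.35% of genes were higher and 18% lower, and in Ly49 or Helios-like cells 3 were higher (Pmepa1, Spsb1 and Ldlrad4) and 1 lower (Tgfb1), where 5.68% were higher and 20.1% lower. The smaller states had wide intervals: circulating effector-like cells had 5 of 9 higher and 1 lower (14.3% and 21.8% of genes), cluster 9 had 5 of 9 higher and 0 lower (22.6% and 21.8%), and interferon-responding-like cells had 4 of 8 higher and 0 lower (12.7% and 24.7%). Depth differed in each state, with 4432 median UMIs in parous and 7380.5 in virgin naive or central memory-like cells, and its part in these ratios was not tested within states.

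**Figure D3:**
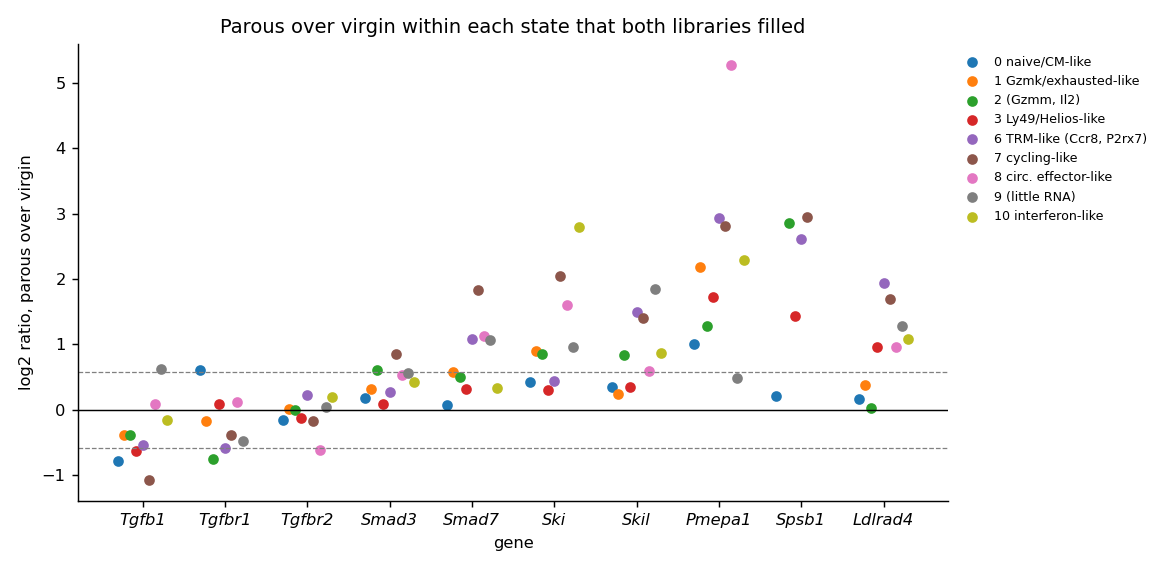
Log2 ratio of parous over virgin (vertical axis) for each gene within each state that both libraries filled, 1 point per state with at least 10 UMIs; dashed lines mark 1.5-fold. All 9 Pmepa1 points lie above 0, between 0.48 and 5.28, while the Tgfbr2 points lie on both sides of 0.

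The cells were then separated by Itgae. An Itgae UMI was found in 563 of 2992 parous cells (18.8%) and in 264 of 2502 virgin cells (10.6%). These cells lay in different states: of the parous ones 41.2% were in cluster 5 and 25.9% in cluster 4, while of the virgin ones 81.1% were naive or central memory-like. Cells with and without Itgae had similar depth, with medians of 4223 and 4063 UMIs in the parous library and 7489.5 and 6929 UMIs in the virgin library. Itgae itself was left out of the totals in these comparisons.

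Within the parous library, cells with Itgae carried more Ldlrad4, Spsb1, Pmepa1 and Skil. Ldlrad4 stood at 241.4 CPM with Itgae and 70.9 CPM without (log2 ratio 1.77, interval 1.61 to 1.92), and Spsb1 at 61.6 and 14.5 CPM (2.08, interval 1.76 to 2.41). Pmepa1 stood at 186.7 CPM with Itgae and 80.9 CPM without (1.21, interval 1.04 to 1.37), and Skil at 177.5 and 81.0 CPM (1.13, interval 0.97 to 1.30). Tgfbr1 (0.69) and Ski (0.71) made up the 6 of 10 genes at least 1.5-fold higher, with 0 lower, where 14.5% of 12082 genes were higher and 10.1% lower. Smad3, at 57.0 and 57.1 CPM, and Smad7, at 163.0 and 151.9 CPM, hardly differed. Parous cells with Itgae also carried 2475 CPM of the NK or innate-like marker list, against 408.2 CPM in parous cells without Itgae. In parous cells with 0 UMIs of Fcer1g and of Tyrobp the ratios of the split were 1.84 for Spsb1, 1.54 for Ldlrad4, 1.03 for Pmepa1 and 0.91 for Skil, but 0.01 for Tgfbr1. Without clusters 4 and 5 they were 0.94, 1.36, 0.996 and 0.90, with 0.09 for Tgfbr1.

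Within the virgin library Pmepa1, Ldlrad4 and Spsb1 stood below their parous levels on both sides of the split. Pmepa1 stood at 40.8 CPM with Itgae and 19.2 CPM without (log2 ratio 1.09, interval 0.73 to 1.43), Ldlrad4 at 81.2 and 38.8 CPM (1.07, interval 0.82 to 1.30) and Spsb1 at 7.71 and 3.44 CPM (1.19, interval 0.30 to 1.96, from 17 and 61 UMIs). These were the 3 genes at least 1.5-fold higher, and Smad3, at 16.3 and 37.6 CPM (−1.18, interval −1.73 to −0.72), was the 1 lower, where 10.7% of 13076 genes were higher and 19% lower. Virgin cells with Itgae carried 40.8 CPM of the NK or innate-like list, with Ncr1, Klra8, Klri2, Trdc and Tcrg-C1 at 0, against 133.9 CPM without Itgae.

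Parous and virgin cells were also compared at the same Itgae status. Among cells with Itgae 6 of 10 genes were higher in parous cells and 0 lower (median log2 ratio 1.40), where 19.2% of 10659 genes were higher and 17% lower. Spsb1 (2.96), Pmepa1 (2.19), Smad3 (1.79), Skil (1.68), Ldlrad4 (1.57) and Ski (1.24) were these 6, and without clusters 4 and 5 Pmepa1 had a ratio of 1.60 and Spsb1 of 1.33. These pools differed in state, as 81.1% of virgin cells with Itgae were naive or central memory-like. Within that state, at any Itgae status, the ratios were 0.21 for Spsb1, 1.002 for Pmepa1 and 0.18 for Smad3. They were 0.35 for Skil, 0.16 for Ldlrad4 and 0.42 for Ski. Among cells without Itgae 7 of 10 were higher and 1 lower (Tgfb1, −0.60), where 6.38% of 13612 genes were higher and 17.7% lower. Pmepa1 and Spsb1 both had a ratio of 2.07 there, with 80.9 CPM of Pmepa1 in parous and 19.2 CPM in virgin cells without Itgae. The higher parous level of Pmepa1 was therefore seen on both sides of the Itgae split. Parous cells without Itgae stood above virgin cells with it (80.9 and 40.8 CPM). The parous cells without Itgae included 270 of cluster 4 and 94 of cluster 5. These held 226 and 57 of the pool's 863 Pmepa1 UMIs, and 43 and 24 of its 155 Spsb1 UMIs.

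Because the chance of finding an Itgae UMI grows with depth, cells were also thinned to 1400 UMIs and Itgae status was taken after thinning. In the parous library Ldlrad4 was then found in 36.2% of 282 cells with Itgae and 10.1% of 2585 cells without, Pmepa1 in 22.0% and 10.9%, Skil in 24.8% and 12.2%, and Spsb1 in 8.16% and 2.79%. In the virgin library Ldlrad4 was found in 19.6% of 56 cells with Itgae and 5.02% of 2432 cells without. For Pmepa1 the virgin shares were 5.36% (3 cells, interval 1.12 to 14.9%) and 2.88%, a difference not detectable at this depth.

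The split by Itgae was repeated inside clusters with at least 30 cells on each side, so that cells of the same cluster were compared. Cells of 1 cluster can still differ in state. In virgin naive or central memory-like cells (214 with and 760 without Itgae) 0 of 10 genes were higher and 0 lower, where 9.41% of 10749 genes were higher and 7.24% lower. Pmepa1 stood there at 40.6 CPM with Itgae and 30.1 CPM without, and Ldlrad4 at 71.8 and 66.4 CPM. In parous naive or central memory-like cells (55 with and 398 without) Pmepa1 stood at 67.6 and 64.8 CPM, and 1 of 10 genes (Tgfb1, 14 and 62 UMIs) was higher, where 20.7% of 8434 genes were higher and 15.9% lower. In that state Pmepa1 thus lay further apart between the libraries than between cells with and without Itgae.

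In parous cluster 4 (146 with and 270 without Itgae) Ldlrad4 stood at 235.4 CPM with Itgae and 122.6 CPM without (log2 ratio 0.94, interval 0.58 to 1.31). Ski (0.81, interval 0.22 to 1.41) and Spsb1 (0.71, interval 0.09 to 1.34) were also at least 1.5-fold higher, 3 of 10 in all with 0 lower, where 11.6% of 8421 genes were higher and 12.8% lower. Pmepa1 stood at 221.1 CPM with Itgae and 245.1 CPM without (−0.15, interval −0.46 to 0.16), and Skil at 194.1 and 189.8 CPM. Smad7 was lower with Itgae, at 171.8 against 228.9 CPM (−0.41, interval −0.76 to −0.07).

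In parous cluster 5 (232 with and 94 without) Ldlrad4 was 336.9 CPM with Itgae and 312.8 CPM without, and Tgfb1 (0.83) and Tgfbr1 (0.85) were the 2 of 10 at least 1.5-fold higher, where 16.2% of 8342 genes were higher and 12.6% lower. In parous cluster 2 (55 with and 541 without) Pmepa1 stood at 153.4 and 75.6 CPM (1.03, interval 0.54 to 1.47), Ldlrad4 at 128.9 and 46.8 CPM (1.47, interval 0.92 to 1.98) and Skil at 141.2 and 76.7 CPM (0.89, interval 0.39 to 1.35). With Spsb1 these were 4 of 10 higher, and 1 was lower (Tgfb1), where 15.8% of 9511 genes were higher and 17.6% lower. The split thus gave other values from state to state, and whether the states differ in it was not tested.

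The cells were also pooled by their number of Itgae UMIs. Ldlrad4 stood at 70.9, 187.3, 272.7 and 302.2 CPM in parous cells with 0, 1, 2 and at least 3 Itgae UMIs (2429, 284, 137 and 142 cells). Pmepa1 stood at 80.9, 168.5, 193.0 and 210.6 CPM in the same pools, and Skil at 81.0, 162.0, 169.1 and 209.3 CPM. For Pmepa1 and Skil the step lay between 0 and 1 Itgae UMI, and the intervals of the other 3 pools overlapped. Spsb1 stood at 14.5, 54.8, 51.0 and 81.1 CPM in these parous pools, and Smad3, which showed no such step, at 57.1, 49.1, 70.2 and 58.9 CPM. In virgin cells (2238, 184, 44 and 36 cells) Ldlrad4 stood at 38.8, 72.8, 104.9 and 95.5 CPM and Pmepa1 at 19.2, 40.9, 46.9 and 32.9 CPM. Parous cells with 0 Itgae UMIs therefore had more Pmepa1 than virgin cells with at least 3. The intervals were 75.6 to 86.5 CPM and, from 10 Pmepa1 UMIs, 15.8 to 60.6 CPM. The parous pool with 0 Itgae UMIs included 270 cells of cluster 4 and 94 of cluster 5.

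**Figure D4:**
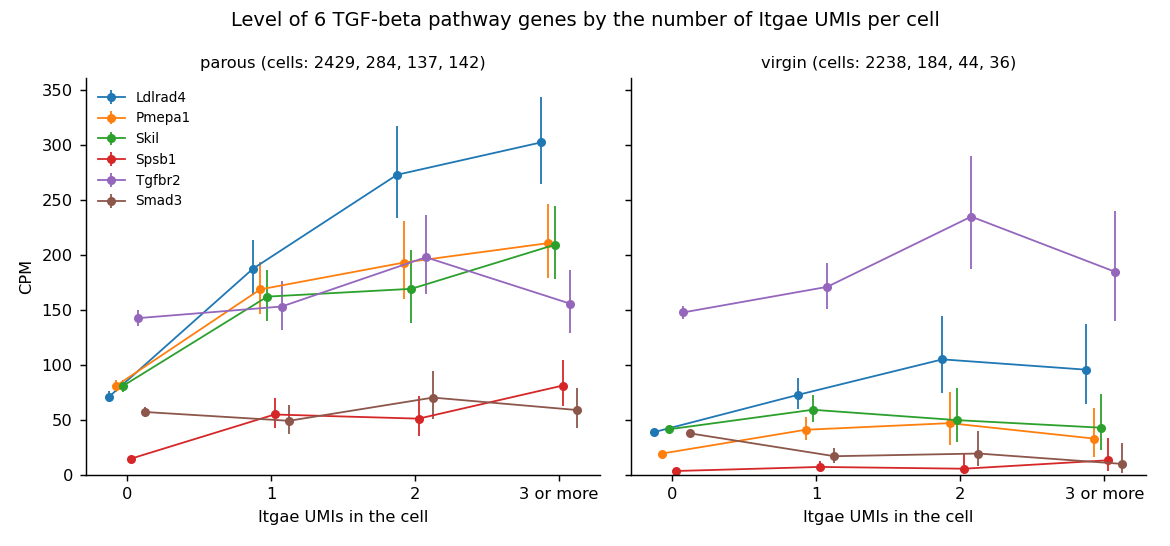
Level (CPM, vertical axes) of Ldlrad4, Pmepa1, Skil, Spsb1, Tgfbr2 and Smad3 in cells with 0, 1, 2 and at least 3 Itgae UMIs (horizontal axes), parous and virgin, with exact 95% Poisson intervals. Parous Ldlrad4 goes up over the 4 pools, to 302.2 CPM at 3 or more Itgae UMIs, while virgin Ldlrad4 stays at 104.9 CPM or less.

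Other genes of the pathway were read from lists of ligands and their activators, receptors, Smads, regulators and known responses, beside the 8.61% of all genes that were higher and the 17.4% that were lower in the parous library. Of 5 measured ligand and activator genes 1 was higher in the parous library (Tgfb3, 14 parous and 5 virgin UMIs) and 2 lower, Ltbp4 (10 and 27 UMIs, −0.80) and Nrros, which holds latent TGF-beta at the cell surface, at 22.1 CPM in parous and 46.6 CPM in virgin cells (log2 ratio −1.08). Of 8 measured receptor genes of the wider family 2 were higher (Acvr2a and Bmpr2) and 3 lower (Eng, Acvrl1 with 8 and 45 UMIs, and Acvr1b, −0.71). Acvr2a, an activin receptor, stood at 29.3 CPM in parous and 9.18 CPM in virgin cells (1.67), and Eng, an accessory receptor, at 2.63 and 7.77 CPM (−1.54). Of 4 other Smads 0 were higher and 0 lower, with a median of −0.12.

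Of 15 regulators 3 were higher and 0 lower, beside 8.61% and 17.4% of all genes. The 3 were Tgif1 (97.7 CPM in parous and 63.6 CPM in virgin cells, 0.62), and Tgif2 (19.2 and 8.12 CPM, 1.24), which encode nuclear co-repressors, and the decoy receptor gene Bambi (21.8 and 8.87 CPM, 1.30). The median of all 15 was −0.04, and the ubiquitin ligase genes Smurf1 (−0.01) and Smurf2 (0.50) were not 1.5-fold apart. Of 7 measured genes known to be raised by TGF-beta 5 were higher and 0 lower, with a median of 1.27. They were Itgae (85.0 CPM in parous and 20.3 CPM in virgin cells, 2.06), the E-cadherin gene Cdh1 (31.5 and 2.46 CPM, 3.67), the integrin gene Itga1 (75.4 and 31.3 CPM, 1.27) and the cell cycle inhibitor genes Cdkn1a (72.5 and 24.3 CPM, 1.58) and Cdkn2b (24 and 20 UMIs, 0.84). Itgae, Cdh1 and Itga1 are also among the markers that name tissue-resident memory-like cells. Once clusters 4 and 5 were left out, only Cdh1 (13.1 and 2.17 CPM, 2.59) and Cdkn1a (60.4 and 23.98 CPM, 1.33) of the 7 were at least 1.5-fold higher. Itgae then stood at 28.1 CPM in parous and 19.2 CPM in virgin cells (0.54) and Itga1 at 35.5 and 30.4 CPM (0.22). Of 10 genes known to be lowered 1 was higher and 3 lower, with a median of −0.27. Klf2, a transcription factor of recirculating cells, stood at 825.9 CPM in parous and 1708.7 CPM in virgin cells (−1.05), Klrg1 had a ratio of −2.12 and S1pr5 of −2.26, while the granzyme gene Gzmb had one of 1.02. Klf2, Klrg1 and S1pr5 are also among the markers listed for circulating effector-like cells. Gzmb turned to −0.66 without clusters 4 and 5, which made 0 of the 10 higher and 4 lower. The ratios were then −0.79 for Klf2, −1.87 for Klrg1 and −2.02 for S1pr5. The counts of the ligand, receptor, other Smad and regulator lists were then 1 and 1, 2 and 3, 0 and 0, and 3 and 1, beside 6.02% of all genes higher and 18.1% lower.

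The response genes were also set against Itgae status, with Itgae itself left out. Of 6 measured genes known to be raised, 4 were higher and 0 lower with Itgae in parous cells (Cdh1, Itga1, Cdkn1a and Cdkn2b). In virgin cells 1 was higher (Cdh1, 1.72) and 3 were lower (Cdkn1a, and Gpr15 and Cdkn2b with 0 UMIs in cells with Itgae). Only 264 virgin cells (10.6%) had Itgae, so a count of 0 for Gpr15 or Cdkn2b does not establish a lower level. Of the 10 genes known to be lowered, 6 were lower in parous and 7 in virgin cells with Itgae than in those without, and 1 was higher in each. Over all genes 14.5% were higher and 10.1% lower with Itgae among parous cells, and 10.7% and 19% among virgin cells. Klrg1 and Eomes were lower with Itgae in both, with log2 ratios of −2.64 and −1.71 among parous cells and −2.56 and −3.24 among virgin cells. S1pr1, the receptor that lets T cells leave tissue, stood at 66.9 CPM with Itgae and 130.02 CPM without in the parous library (−0.95), and at 234.9 and 150.0 CPM in the virgin library (0.65). S1pr1 is also a listed marker of circulating effector-like cells, and Eomes of Gzmk or exhausted-like cells. Cdkn1a had a ratio of 0.69 among parous cells and −1.73 among virgin cells, and Gzmb of 2.77 and −1.62. Tgfbr3, the co-receptor betaglycan, was higher with Itgae in both libraries (1.18 among parous and 1.72 among virgin cells). With clusters 4 and 5 left out the parous S1pr1 levels were 155.6 CPM with Itgae and 144.0 CPM without (0.12), and the ratios were 0.53 for Cdkn1a and 1.32 for Gzmb. By count 4 of the 6 raised genes were then higher and 0 lower, and 1 of the 10 lowered genes was higher and 5 lower, where 13.7% of 11631 genes were higher and 12.1% lower. Whether the libraries differ in the split was not tested.

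The genes most like Pmepa1 were sought among 8092 genes over 18 pools of 1 state and 1 library each, by Pearson correlation of log2(CPM + 1). The pools share 2 libraries, and the parous over virgin difference itself enters the values, so the correlations describe these pools only. The 5 nearest were Bambi (0.88), Smad7 (0.87), Spsb1 (0.87), Ldlrad4 (0.86) and Ccnyl1 (0.85), so 3 of the 5 were other genes of the set described here. For Skil they were Epb41 (0.89), Ldlrad4 (0.88), Smyd3 (0.86), Prag1 (0.86) and Spsb1 (0.86), and for Smad7 Bambi (0.90), Pmepa1 (0.87), Gch1 (0.86), Tgif1 (0.86) and Pde4d (0.84). Itgae had a correlation of 0.69 with Pmepa1, while Tgfbr2 had 0.23 and Tgfb1 −0.34.

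The removed cluster of other cells (27 parous and 9 virgin cells), led by Krt18, Krt19, Csn3, Prlr and Wfdc2, was mixed and had 148.2 CPM of Pmepa1 among parous and 109.7 CPM among virgin cells. Its epithelial markers summed to 9806 CPM in parous and 5394 CPM in virgin cells, its myeloid markers to 3164 and 1707 CPM, and its B cell markers to 2320 and 2213 CPM. Which of these cells carried Pmepa1 was not tested. In CD8 T cells the 9 epithelial markers summed to 13.7 CPM (parous) and 4.86 CPM (virgin), with Krt8, Krt14, Krt5 and Wap at 0 in parous cells. The myeloid list summed to 19.9 CPM in parous and 9.48 CPM in virgin cells. Higher sums came from the stromal, endothelial or adipocyte list (82.9 and 83.1 CPM), the B cell list (94.0 and 140.2 CPM) and the CD4 T list (181.7 and 256.6 CPM). Cluster 9, kept among the CD8 T cells, was led by Fabp4 and had Cd3e in 73.0% of its cells. The NK or innate-like list summed to 815.1 CPM in parous and 123.6 CPM in virgin cells. In cells with 0 UMIs of Fcer1g and of Tyrobp the parous over virgin log2 ratio was 2.03 for Pmepa1, 2.03 for Spsb1 and 1.03 for Skil, and in cells with a Cd8b1 UMI it was 2.11, 2.18 and 1.09.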

How the data were processed

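Single-cell RNA was measured in 1 parous and 1 virgin library of sorted CD8 T cells. The deposited matrices held raw UMI counts, and Cell Ranger 7.0.0 wrote them per the file headers. The submitters' processing notes give the mm10 build and, with no role stated, R 4.4.2 and Seurat. How barcodes were called as cells is not given in the sources used here.

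The cell filter asked for 500 genes, 1000 UMIs and a mitochondrial share under 10%, which left out 1908 of 4927 parous and 15 of 2526 virgin barcodes. Scrublet marked 2 parous and 12 virgin cells, under 0.5% of each library, was taken not to have worked, and its calls were not removed. For clustering (scanpy 1.11.5, leidenalg 0.10.2, 2000 variable genes, 30 components, 15 neighbours, resolution 0.8) virgin UMIs were thinned to 58.7%, and the 72 pathway genes, receptor segments and ribosomal and mitochondrial genes were left out. A cluster took a type's name with at least 3 of its markers 2-fold above the other cells. Rows for the 10 genes were taken by symbol.

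Counts were summed per pool and scaled to CPM. A gene entered a count of calls with at least 10 UMIs over both pools. Shares used cells thinned to 1400 UMIs, leaving out 125 parous and 14 virgin cells. State pools of CD8 T cells under 30 cells (for correlations, 50) are not given. Positions came from GENCODE mouse release 21. Named genes were the 10, up to 6 per list at least 1.5-fold apart, the 5 most alike and the 5 leading genes of clusters. Ratios and intervals were tested on simulated counts. The 10 genes and the lists were chosen with earlier results of these data known. Tools were Python 3.11.15 with scipy 1.17.1, numpy 2.4.6 and pandas 2.3.3. The pathway lists without clusters 4 and 5 were added after seeing the data. Alternatives covered scaling, weighting of cells, depth, filters, cells compared, doublet calls, thresholds, Itgae status and clustering.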

Additional observations from a re-analysis of the deposited data

Results flagged for a closer look

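Ldlrad4 stood at 85.5 CPM in the parous part of the removed cluster of other cells (15 UMIs in 27 cells), above the 14.3 CPM in the virgin part (3 UMIs in 9 cells), a signal in cells that no comparison used. Tgfb1 moved in opposite directions across the Itgae split: the log2 ratio of cells with over cells without Itgae was 0.49 among parous cells and −0.41 among virgin cells, with intervals that exclude 0, and the difference between them was not tested. Without clusters 4 and 5 the parous ratio was −0.13. Tgfbr1 had parous over virgin log2 ratios of 0.61 in naive or central memory-like cells (53 parous and 124 virgin UMIs) and −0.75 in cluster 2 (38 and 41 UMIs), with intervals that exclude 0, and this difference was not tested either.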

How the results depend on the processing

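No paired analysis was possible because each group is 1 library, and with 1 library per group no replicate could be left out. Among the log2 ratios of the single genes, 536 values under alternatives moved by less than their counting interval, 93 moved further and 1 reversed: Spsb1 in virgin cells with over those without Itgae, 1.19, was −0.057 with Itgae status taken after thinning, from 1 UMI with Itgae. Of the counts of genes, 123 were within 1.5 times the reported one and 11 were not. At a fold threshold of 2 the count higher in the parous library was 4, not 7, over all cells and 2, not 7, in cells without Itgae. Without clusters 4 and 5, 1 gene was lower over all cells, not 0, and 4, not 7, were higher in cells without Itgae. The count lower in cells without Itgae was 0, not 1, under median-of-ratios scaling, with the mean over cells, thinned to 1400 UMIs, at a threshold of 2 and with Itgae status after thinning. With that status 2 genes, not 1, were lower with Itgae in the virgin library. Clustered with the 72 pathway genes, the cluster that holds most of cluster 4 had 645 parous and 51 virgin cells, with 1 gene lower, not 0. The causes were not tested. Over the clustering alternatives Pmepa1 was 2.67 to 2.80-fold higher and Spsb1 2.26 to 3.09-fold higher in that cluster than in other parous cells. Parous over virgin, Pmepa1 ranged from 1.68 to 2.36 and Spsb1 from 1.42 to 2.73 on the log2 scale over all cells. Among the pathway lists without clusters 4 and 5, also chosen after seeing the data, Gzmb was −0.66 over all cells, not 1.02, and in the parous Itgae split Itgav was −0.37, not 0.70, Usp11 −0.080, not 0.61, and S1pr1 0.12, not −0.95. Leaving out the little-RNA cluster 9, an alternative chosen after seeing the data, gave 2.26 and 2.63. The virgin Spsb1 values rest on 78 UMIs, and the spread between libraries of 1 group was not measured.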

Other observations

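Among parous barcodes, the 1908 that failed the cell filter held 1217957 UMIs, with 84.6 CPM of Pmepa1 (interval 69.0 to 102.6), 110.0 CPM of Skil and 130.5 CPM of Tgfb1. The 15 virgin barcodes left out held 12383 UMIs and 0 UMIs of Pmepa1, which allows up to 297.9 CPM.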
